A study of Mus musculus with 16 samples.

Results

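The genes of glycolysis and the pentose phosphate pathway were followed as a set of 34 members, taken by symbol from a table of 54532 genes. The members cover glucose and lactate transporters, the enzymes from hexokinase to lactate dehydrogenase, the entry of pyruvate into mitochondria, both branches of the pentose phosphate pathway and Hif1a, which encodes the oxygen-regulated subunit of the transcription factor HIF-1. RNA-seq was done on TCF1+CD8+ T cells that had been made in culture within 4 days from naive CD8+ T cells of C57BL/6J spleens by repeated activation. Cells were kept for 1 h with PGE2 at 100 ng per ml or without it, and were then cultured for 4 h with IL-2 at 85 U per ml, alone or together with anti-CD3/CD28 beads at 1 bead per cell. This gave 4 groups of 4 replicates, named unstimulated untreated, unstimulated PGE2, stimulated untreated and stimulated PGE2. All cells carried the same wild-type background. All groups received IL-2 after the repeated activation, so the unstimulated cells are not resting cells. The cells are a culture model of stem-like T cells and not cells taken from a tumour.

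Glycolysis splits glucose into pyruvate, which is reduced to lactate and exported or enters mitochondria through the pyruvate carrier and pyruvate dehydrogenase. The pentose phosphate pathway branches off at glucose 6-phosphate: its oxidative arm makes NADPH, and its non-oxidative arm interconverts sugar phosphates and yields ribose 5-phosphate for nucleotides. Activated T cells are known for a high flux through both, and HIF-1 is a known activator of many glycolytic genes. PGE2 acts on T cells through receptors that raise cAMP.

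Libraries held between 22678254 and 42950763 counts. The 6 defining markers of CD8 T cells summed to between 2454 and 4460.4 CPM (counts scaled with TMM factors to 1 common library size) in the single samples and none was at 0, while Tcf7, the gene of TCF1, averaged 1175 CPM in unstimulated untreated cells and 309 CPM in stimulated untreated cells. Summed markers of myeloid cells stayed between 0.299 and 1.21 CPM, those of erythroid cells between 0.302 and 1.29 CPM, those of B cells between 4.60 and 21.1 CPM and those of CD4 T cells between 18.0 and 40.6 CPM. The NK cell list summed to between 5.55 and 24.1 CPM without beads and between 36.5 and 178 CPM with beads. That sum was almost all Eomes, a gene that CD8 T cells also use, with Ncr1 and Klra8 at 0 in every group. B cell sums were lower with beads (4.60 to 12.1 CPM) than without (10.1 to 21.1 CPM), and their part in the results was not tested. In bulk RNA, fewer cells of a kind and less RNA per cell cannot be told apart.

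Promoters are shown for the lactate carriers and the hexokinases, because Slc16a3 and Hk1 rose with PGE2 with and without beads while their partners Slc16a1 and Hk2 did not. Of the 34 members, 33 were matched to RefSeq promoters on GRCm38.p6 (all but Slc2a3), with 48 start sites in all. Each window runs from 250 bases before to 50 bases after the start, is written 5′ to 3′ on the strand of the gene, and has capitals for the HIF core letters ACGTG or GCGTG and for the cAMP response element half-site letters TGACG, on either strand and also where they overlap.
Slc16a1, chr3:104638414-104638713, plus strand: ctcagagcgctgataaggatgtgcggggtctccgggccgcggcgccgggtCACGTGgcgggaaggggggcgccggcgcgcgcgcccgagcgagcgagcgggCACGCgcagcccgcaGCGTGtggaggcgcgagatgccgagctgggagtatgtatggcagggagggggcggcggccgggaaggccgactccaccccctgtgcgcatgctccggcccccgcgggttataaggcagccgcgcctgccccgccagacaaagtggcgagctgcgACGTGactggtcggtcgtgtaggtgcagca
Slc16a3, chr11:120948817-120949116, plus strand: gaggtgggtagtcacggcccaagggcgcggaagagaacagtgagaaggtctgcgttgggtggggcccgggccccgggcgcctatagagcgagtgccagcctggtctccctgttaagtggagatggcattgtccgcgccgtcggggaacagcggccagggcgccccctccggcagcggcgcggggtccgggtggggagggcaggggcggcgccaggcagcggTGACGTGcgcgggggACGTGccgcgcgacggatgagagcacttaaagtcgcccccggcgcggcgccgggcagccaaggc
Hk1, chr10:62340372-62340671, minus strand: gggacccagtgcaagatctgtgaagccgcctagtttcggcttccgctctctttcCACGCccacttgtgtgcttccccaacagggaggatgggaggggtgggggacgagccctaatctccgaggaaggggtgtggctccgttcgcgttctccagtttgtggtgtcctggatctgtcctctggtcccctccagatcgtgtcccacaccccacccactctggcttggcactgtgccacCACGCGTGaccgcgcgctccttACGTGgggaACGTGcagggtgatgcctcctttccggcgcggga
Hk1, chr10:62379859-62380158, minus strand: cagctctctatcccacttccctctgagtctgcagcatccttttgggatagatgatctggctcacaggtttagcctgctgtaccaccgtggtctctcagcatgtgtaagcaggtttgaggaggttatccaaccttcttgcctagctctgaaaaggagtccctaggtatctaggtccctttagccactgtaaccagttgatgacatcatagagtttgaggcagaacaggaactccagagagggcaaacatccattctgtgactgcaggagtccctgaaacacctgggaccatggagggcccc
Hk2, chr6:82774405-82774704, minus strand: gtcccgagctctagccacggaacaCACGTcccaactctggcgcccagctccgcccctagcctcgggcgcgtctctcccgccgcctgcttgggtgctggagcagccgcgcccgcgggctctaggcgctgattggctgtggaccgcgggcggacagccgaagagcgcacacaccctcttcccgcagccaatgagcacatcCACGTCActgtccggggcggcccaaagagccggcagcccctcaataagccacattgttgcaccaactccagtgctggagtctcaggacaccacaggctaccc

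HIF core letters stood in 38 of the 48 member promoters (79.2%), against 43.8% of all 32851 RefSeq promoters of this length and 63% of those of genes that averaged 1 CPM or more here. They were in the windows of Slc16a1, Slc16a3, Hk2 and the inner start of Hk1, and in none of the outer Hk1 start. The E-box CACGTG, which contains ACGTG, was in 5 of the 48 (10.4%, against 7.15% of all and 10.3% of those of genes at 1 CPM or more), Slc16a1 and Hif1a among them. TGACG was in 10 of the 48 (20.8%, against 20.8% of all and 32.4% of those of genes at 1 CPM or more), including Slc16a3 and Hk2. The full element TGACGTCA was in 1, an Ldha promoter (2.08%, against 1.79% and 3.22%). These letters are a description of the windows and do not mark a bound site.

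Per unit of length, Ldha, the gene of the main lactate dehydrogenase subunit of T cells, was the most abundant member with a mean of 783 FPKM over the 16 samples. Pgk1 followed with 758 FPKM and Aldoa with 731 FPKM. Eno1 (527 FPKM), Pkm (529 FPKM), Tpi1 (468 FPKM) and Pgam1 (341 FPKM) formed the next step of the scale. Ldhb was the lowest with 3.14 FPKM, beside the carrier subunits Mpc1 (3.40 FPKM) and Mpc2 (3.91 FPKM).

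Gapdh stood apart from the other enzymes of lower glycolysis. It was counted at only 46.3 FPKM, and its level differed up to 5.57-fold between replicates of 1 group. In unstimulated untreated cells it read 51.4, 152, 286 and 83.4 CPM, and in stimulated untreated cells 171, 311, 106 and 409.6 CPM. The annotation holds 77 near-identical copies of Gapdh, whose own counts averaged 137 CPM against 201 CPM on Gapdh itself. With the copies added, a setting chosen after seeing the data, the sum still differed up to 3.91-fold within a group. How reads that match several places were counted is not given in the sources used here, so the values of Gapdh are uncertain in every comparison. No other member had more than 3 such copies, and these held at most 3.12% of the summed counts (Eno1).

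The first question was how PGE2 moved these genes with and without beads. All 34 members were tested in each comparison by edgeR's quasi-likelihood test, with Benjamini-Hochberg adjustment over all genes tested and a threshold of 0.05. In unstimulated cells PGE2 changed 11 members (32.4%), 7 up and 4 down, where 28.4% of the 14505 genes tested changed, 12.9% up and 15.5% down. In stimulated cells it changed 4 members (11.8%), 3 up and 1 down, against 9.84% of 13922 genes, 6.04% up and 3.80% down. Both shares were near the background in this fit, which does not use the replicate numbers. Slc16a3, Hk1 and Hif1a passed the threshold upwards in both comparisons. None of the 34 changed by 2-fold or more in either, while 3.38% of all genes did in unstimulated and 1.75% in stimulated cells. DESeq2 and limma also gave 0 members at that fold, and 16 and 6 members had an unadjusted p under 0.05 in unstimulated and stimulated cells. The share of all genes at that unadjusted p was not counted. The groups did not overlap for 9 members (26.5%) in unstimulated and 6 (17.6%) in stimulated cells, against 28.9% and 17.9% of all genes. The members had median log2 fold changes of 0.15 and 0.04 in these states, with medians of -0.00 and -0.01 over all genes.

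Samples with the same replicate number tended to deviate together in both comparisons, and the fit with the number as a block made more calls. In stimulated cells the deviations of some samples with different numbers correlated as well, up to 0.25, above the 0.19 of the samples numbered 2. The block is therefore uncertain there. In unstimulated cells it called 27 members (79.4%), 18 up (52.9%) and 9 down (26.5%), where it called 47.8% of all genes, 23.6% up and 24.2% down. There the share of members was above that of all genes, but no comparison with genes of like abundance was made. In stimulated cells it called 14 (41.2%), 9 up (26.5%) and 5 down (14.7%), where it called 39.8% of all genes, 19.1% up and 20.7% down. Each call of the fit without the block was kept. The number of calls also depended on single libraries. In stimulated cells 2 members remained past the threshold without untreated replicate 1 or 2 or without PGE2 replicate 2, 3 or 4, and in unstimulated cells 7 remained without untreated replicate 1 or 2 or without PGE2 replicate 3. Calls over all genes fell in these fits too. Without stimulated untreated replicate 1 they were 503 up and 257 down of 14046, against 841 and 529 of 13922 with it. Without unstimulated untreated replicate 1 they were 1685 up and 2012 down of 14850, against 1869 and 2253 of 14505.

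**Figure D1:**
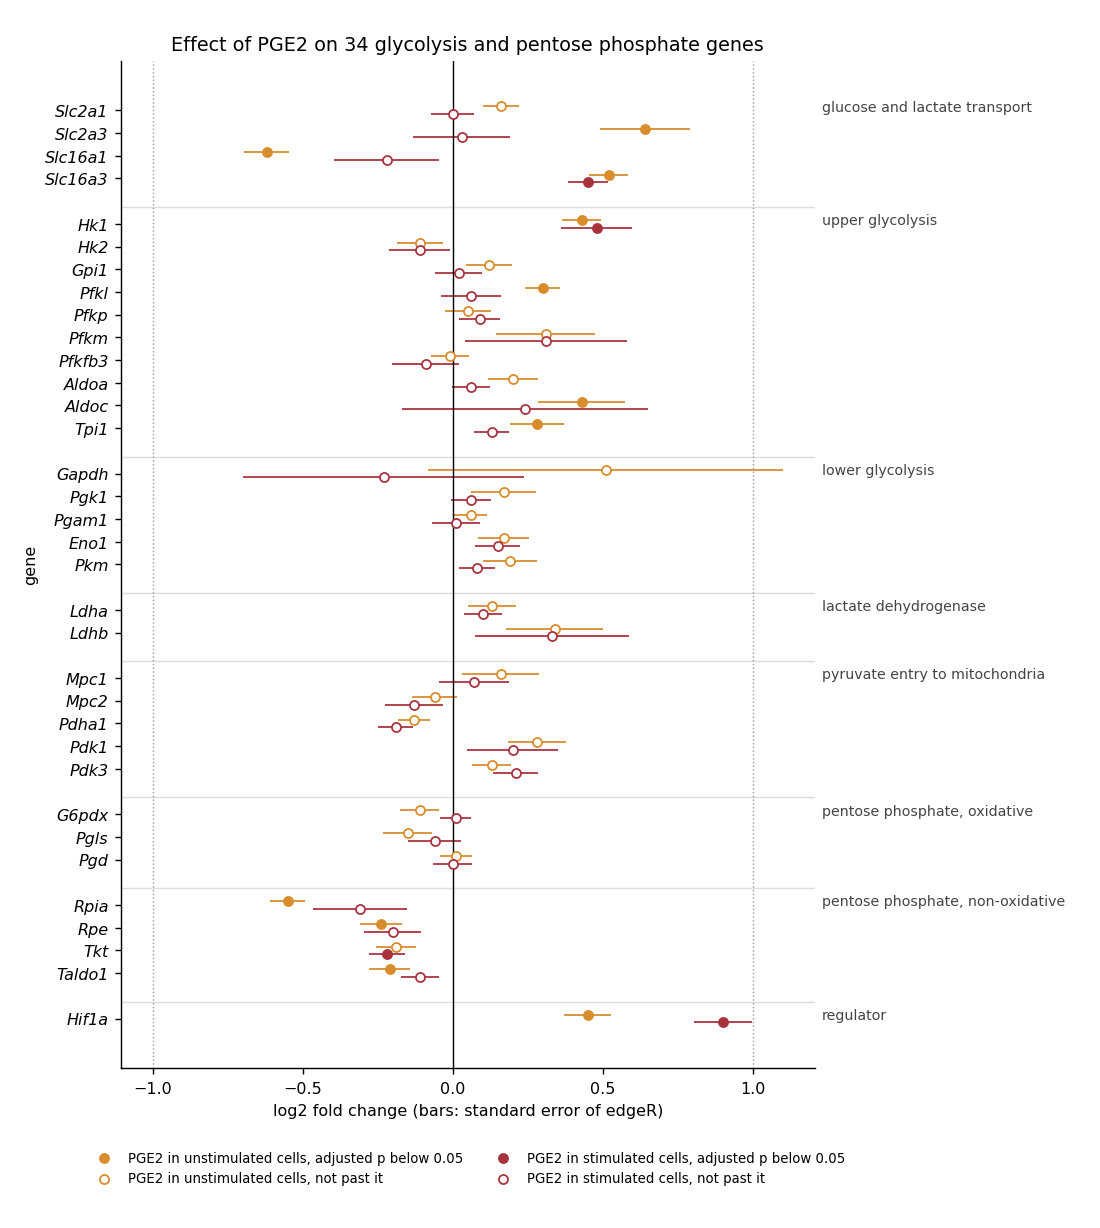
Log2 fold change of each of the 34 members with PGE2 (x axis) by gene and role (y axis), in unstimulated and stimulated cells, with bars for the standard error of edgeR and filled points for an adjusted p below 0.05. All 4 genes of the non-oxidative pentose phosphate arm lie left of 0 in both comparisons, Slc16a3, Hk1 and Hif1a are filled and right of 0 in both, and no point passes the dotted lines at a 2-fold change.

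Among the transporters, the 2 lactate carriers moved in opposite directions in unstimulated cells. Slc16a3 encodes MCT4, the low-affinity carrier known for lactate export. It read 396, 384, 438 and 405 CPM in the 4 unstimulated untreated samples and 561, 554, 603 and 569 CPM with PGE2, a log2 fold change of 0.52 ± 0.0654 (SE, adjusted p = 1.78e-04 by edgeR). In stimulated cells it read 384, 372, 416 and 377 CPM without PGE2 and 512, 503, 522 and 563 CPM with it, a log2 fold change of 0.45 ± 0.0672 (adjusted p = 0.00327 by edgeR). The groups did not overlap in either state, and both calls held in every alternative fit and without any single replicate.

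Slc16a1 encodes MCT1, the carrier of higher affinity. Its unstimulated samples read 112, 109, 95.7 and 117 CPM without PGE2 and 73.0, 64.2, 64.8 and 76.6 CPM with it, so every treated sample was below every untreated one. The log2 fold change was -0.62 ± 0.0757 (adjusted p = 1.33e-04 by edgeR). In stimulated cells the samples read 541, 456, 392 and 358 CPM without PGE2 and 479, 413, 307 and 288 CPM with it. These groups overlapped, and the log2 fold change of -0.22 ± 0.174 did not pass the threshold (adjusted p = 0.420). With the replicate block it did (adjusted p = 0.00363 by edgeR). Each PGE2 sample was below the untreated sample of its number.

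Of the glucose transporters, Slc2a3, the gene of GLUT3, read 338, 405, 441 and 540.5 CPM in unstimulated untreated samples and 532, 624, 726 and 765 CPM with PGE2, and rose with a log2 fold change of 0.64 ± 0.150 (adjusted p = 0.00814 by edgeR), the largest of the members in these cells. The ranges overlapped by 1 sample. With beads it averaged 787 ± 130.3 CPM (SD, n = 4) without and 801 ± 168 CPM with PGE2 (log2 fold change 0.03 ± 0.162, adjusted p = 0.923). Slc2a1, the gene of GLUT1, had a log2 fold change of 0.16 in unstimulated cells (adjusted p = 0.0705, and 0.00212 with the block) and of -0.00 in stimulated cells (adjusted p = 0.996).

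Of the 10 genes of upper glycolysis, 4 rose and none fell with PGE2 in unstimulated cells, and 1 rose and none fell in stimulated cells. Hk1, the hexokinase present in most tissues, read 213, 211, 226 and 229 CPM in unstimulated untreated samples and 278, 279, 306 and 303 CPM with PGE2 (log2 fold change 0.43 ± 0.0642, adjusted p = 5.06e-04 by edgeR). With beads it read 197, 212, 262 and 254 CPM without and 273, 305, 343 and 363 CPM with PGE2 (log2 fold change 0.48 ± 0.119, adjusted p = 0.0336). No treated sample fell to the level of an untreated one in either state. The call in stimulated cells held in 3 of 8 fits that left out 1 replicate, with adjusted p from 0.0121 to 0.106, while that in unstimulated cells held in all 8.

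Hk2, the hexokinase that T cells induce on activation, had a log2 fold change of -0.11 in both states, which did not pass the threshold (adjusted p = 0.307 unstimulated and 0.518 stimulated). The blocked fit called it lower in unstimulated cells (adjusted p = 0.0352 by edgeR). Pfkl, the liver-type subunit of phosphofructokinase, the committing step of glycolysis, read 301, 310.4, 325 and 295 CPM in unstimulated untreated samples and 388, 374, 380.1 and 351 CPM with PGE2 (log2 fold change 0.30 ± 0.0580, adjusted p = 0.00272). The groups did not overlap. With beads Pfkl read 534, 523, 502 and 434 CPM without and 584, 556, 488 and 447 CPM with PGE2, which did not differ past the threshold (adjusted p = 0.699).

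Tpi1, the gene of triosephosphate isomerase, averaged 1047 ± 76.1 CPM in unstimulated untreated cells and 1251 ± 129 CPM with PGE2 (log2 fold change 0.28, adjusted p = 0.0391 by edgeR). Aldoc, the aldolase known from brain, averaged 50.3 ± 7.43 and 66.6 ± 13.1 CPM (log2 fold change 0.43, adjusted p = 0.0467). Both calls were weak: without 1 replicate Tpi1 passed in 3 of 8 fits and Aldoc in 2 of 8. Aldoa, the main aldolase of these cells, had a log2 fold change of 0.20 in unstimulated cells (adjusted p = 0.106, and 0.00114 with the block). Pfkm, the muscle-type phosphofructokinase subunit, had one of 0.31 in both states and was called higher with the block (adjusted p = 8.73e-05 unstimulated and 0.0124 stimulated), and in unstimulated cells also in 1 of 8 fits without 1 replicate (adjusted p = 0.0495). Tpi1 was also called higher in stimulated cells with the block alone (adjusted p = 0.0385). Gpi1, glucose 6-phosphate isomerase, was called with the block in unstimulated cells (log2 fold change 0.12, adjusted p = 0.274 without and 0.0250 with it). Pfkp, the platelet-type subunit, and Pfkfb3, which makes the activator fructose 2,6-bisphosphate, had log2 fold changes between -0.09 and 0.09 and passed in neither fit. A second, minor row under the symbol Aldoa averaged at most 2.37 CPM in a group and was kept apart from the member. That row rose with PGE2 in unstimulated cells (log2 fold change 0.58, adjusted p = 0.0288 by edgeR) but not past the threshold in stimulated cells (0.10). Unlike the member it fell with beads (-2.04 without and -2.48 with PGE2, adjusted p = 1.39e-05 and 1.97e-04).

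Lower glycolysis and lactate dehydrogenase held no call in either state. In unstimulated cells the log2 fold changes were 0.17 for Pgk1 (phosphoglycerate kinase), 0.06 for Pgam1 (phosphoglycerate mutase), 0.17 for Eno1 (enolase), 0.19 for Pkm (pyruvate kinase) and 0.13 for Ldha. Each of these except Pgam1 passed the threshold with the replicate block, with adjusted p from 0.00112 for Pkm to 0.0240 for Ldha. In stimulated cells they were 0.06, 0.01, 0.15, 0.08 and 0.10, and the block called Eno1 alone among these 5 (adjusted p = 0.0168). Ldhb, the heart-type subunit, had log2 fold changes of 0.34 and 0.33 at 3.90 to 6.62 CPM and was called with the block in both states (adjusted p = 0.0106 and 0.0382). Gapdh, at 0.51 ± 0.591 and -0.23 ± 0.469, had the largest standard errors of the members.

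At the entry of pyruvate into mitochondria no member passed the threshold by edgeR without the block. Pdha1, the catalytic subunit gene of pyruvate dehydrogenase, read 130.0, 124, 119 and 126 CPM in stimulated untreated samples and 111, 107, 105 and 113 CPM with PGE2. The groups did not overlap, and the log2 fold change was -0.19 ± 0.0575 (adjusted p = 0.0699, and 0.00294 with the block, by edgeR). It passed in 3 of 8 alternative fits, the block among them. Without beads it read 113, 113, 104 and 110.4 CPM against 108, 95.2, 92.9 and 101 CPM (log2 fold change -0.13, adjusted p = 0.101, and 0.00807 with the block).

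The kinases that switch pyruvate dehydrogenase off had values on the other side of 0. Pdk3 read 51.5, 46.8, 47.8 and 53.7 CPM in stimulated untreated samples and 52.9, 54.7, 60.1 and 62.0 CPM with PGE2, with 1 treated sample inside the untreated range (log2 fold change 0.21 ± 0.0749, adjusted p = 0.106, and 0.00800 with the block). Without beads it read 49.2, 46.0, 45.4 and 51.9 CPM against 51.3, 48.4, 53.2 and 54.8 CPM (0.13, adjusted p = 0.162, and 0.0224 with the block). Pdk1 averaged 316 ± 20.0 CPM in unstimulated untreated cells and 377 ± 49.1 CPM with PGE2 without overlap (0.28 ± 0.0964, adjusted p = 0.0522, and 1.46e-04 with the block), and in stimulated cells the block called it too (0.20, adjusted p = 0.416 without and 0.00614 with it). In unstimulated cells Pdk1 passed in 4 of 8 alternative fits, the block among them. Mpc1 and Mpc2, the subunits of the pyruvate carrier, passed neither without nor with the block.

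The non-oxidative pentose phosphate genes lay below 0 in both comparisons, all 4 of them, with median log2 fold changes of -0.23 in unstimulated and -0.21 in stimulated cells. Rpia, ribose 5-phosphate isomerase, had the smallest adjusted p of all members in unstimulated cells. It read 46.2, 44.8, 43.4 and 41.7 CPM without PGE2 and 31.2, 29.4, 27.6 and 30.1 CPM with it (log2 fold change -0.55 ± 0.0573, adjusted p = 4.71e-05 by edgeR). No sample of one group reached the other. With beads it read 117, 103, 88.5 and 80.2 CPM without and 97.5, 86.3, 65.2 and 63.0 CPM with PGE2. Here the groups overlapped, and a log2 fold change of -0.31 ± 0.157 was called with the block only (adjusted p = 0.233 without and 4.28e-04 with it).

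Tkt, transketolase, was the member that fell in stimulated cells. It read 631, 593, 596 and 577 CPM without PGE2 and 533, 515, 484 and 517 CPM with it (log2 fold change -0.22 ± 0.0604, adjusted p = 0.0477 by edgeR). The groups did not overlap, but the call was lost in each of the 8 fits that left out 1 replicate. Unstimulated samples read 417, 417, 423 and 418 CPM and, with PGE2, 345, 335, 368 and 396 CPM, again without overlap (log2 fold change -0.19, adjusted p = 0.0521, and 0.00128 with the block). There Tkt passed in 5 of 8 alternative fits, the block among them. Rpe, ribulose 5-phosphate epimerase, and Taldo1, transaldolase, fell in unstimulated cells (log2 fold changes -0.24 and -0.21, adjusted p = 0.0241 and 0.0384). Rpe passed in 3 and Taldo1 in 1 of 8 fits without 1 replicate. Rpe shares 17.9% of its exon bases with an antisense neighbour, Kansl1l, which averaged 5.61 CPM against 60.5 CPM, and the use of strand in counting is not given in the sources used here. In stimulated cells Rpe was called lower with the block (adjusted p = 0.0109) and Taldo1 in neither fit.

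None of the 3 oxidative genes passed in either comparison. Pgd, phosphogluconate dehydrogenase, averaged 143 ± 2.80 and 141 ± 4.55 CPM in unstimulated cells and 173 ± 8.46 and 173 ± 9.96 CPM in stimulated cells, without and with PGE2. G6pdx, the gene of glucose 6-phosphate dehydrogenase, the NADPH-making entry step, and Pgls, the lactonase, had log2 fold changes of -0.11 and -0.15 in unstimulated cells, called with the block (adjusted p = 0.0316 and 0.00348), and of 0.01 and -0.06 in stimulated cells, called in neither fit. G6pdx shares 13.6% of its exon bases with the antisense gene Ikbkg, which averaged 55.8 CPM against 63.1 CPM, so its values are uncertain where strand was not used.

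Hif1a had the smallest adjusted p of the members in stimulated cells. It read 389, 407, 378 and 442 CPM in stimulated untreated samples and 806, 829, 722 and 635 CPM with PGE2, a 1.86-fold difference (log2 fold change 0.90 ± 0.0959, adjusted p = 5.47e-04 by edgeR). Without beads it read 309, 292, 276 and 347 CPM and, with PGE2, 419, 421, 371 and 438 CPM, a 1.37-fold difference (log2 fold change 0.45 ± 0.0776, adjusted p = 0.00124). Neither pair of groups overlapped. The unstimulated PGE2 samples and the stimulated untreated samples covered almost the same range, and the stimulated PGE2 samples were above all other samples.

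**Figure D2:**
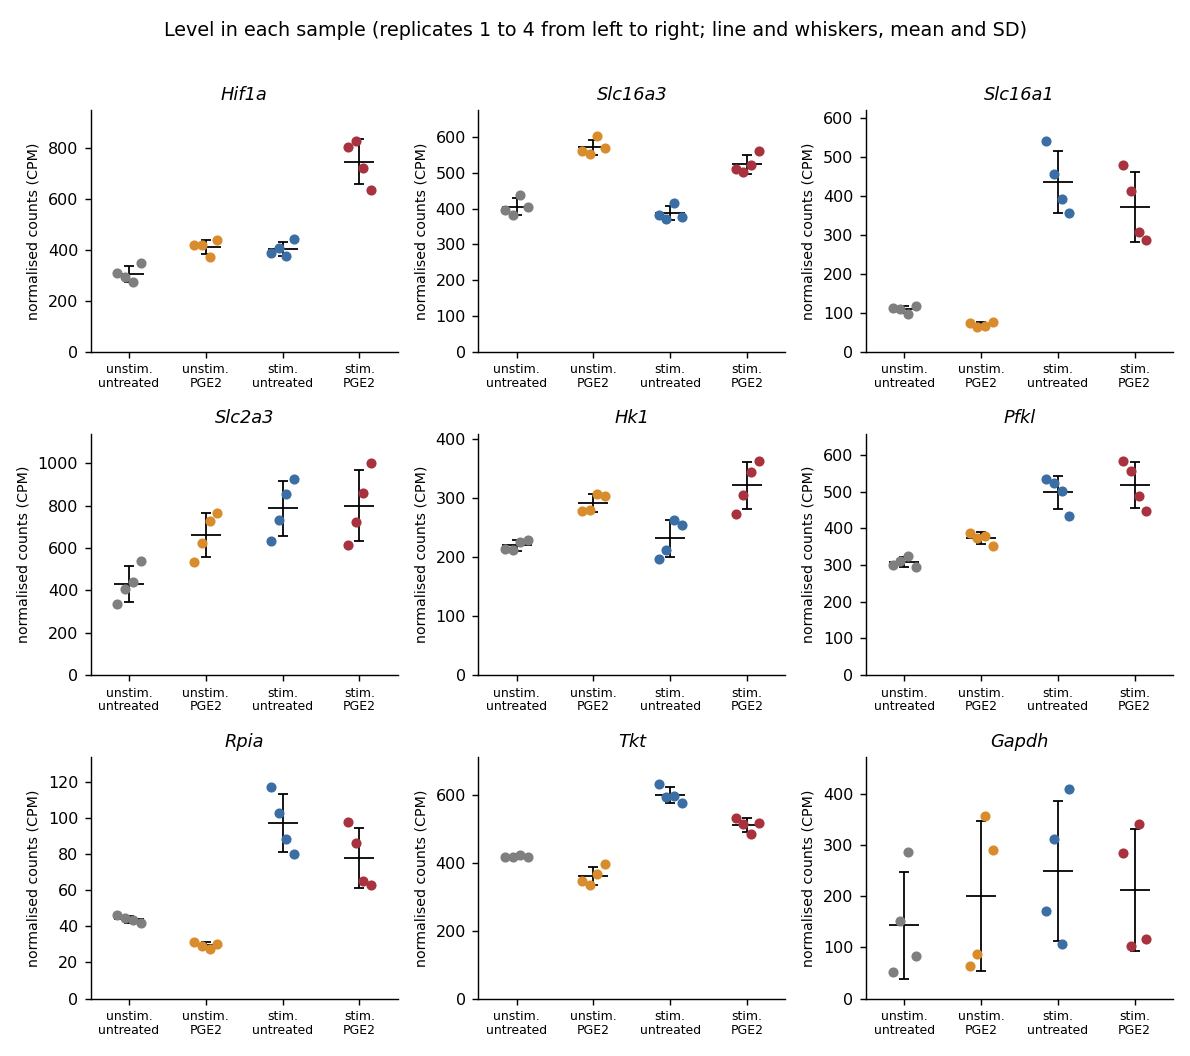
Normalised counts (CPM, y axis) of 9 members in each of the 16 samples by group (x axis), with points for the samples and lines and whiskers for the mean and SD. Hif1a was highest in stimulated PGE2 samples (635 to 829 CPM), Slc16a3 was above its untreated range in both PGE2 groups, and Gapdh scattered over 51.4 to 409.6 CPM without a pattern by group.

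The second question was what the beads did to the same genes. Stimulation without PGE2 changed 25 of the 34 members (73.5%), 22 up and 3 down, where 66.5% of all 14205 genes tested changed, 31.7% up and 34.8% down. Stimulation with PGE2 changed 21 (61.8%), 18 up and 3 down, where 64.2% of 14507 genes changed, 32.5% up and 31.7% down. The 2 comparisons share no samples with each other but share groups with the PGE2 comparisons. The median log2 fold change of the members was 0.33 without and 0.31 with PGE2, against -0.03 and 0.00 over all genes. With upper-quartile scaling the medians over all genes went to -0.13 in both, and the calls of members to 17 up and 5 down without PGE2 and 16 up and 5 down with it. Over all genes that scaling called 3973 up and 5569 down of 14205 without PGE2 and 3921 up and 5465 down of 14507 with it.

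**Figure D3:**
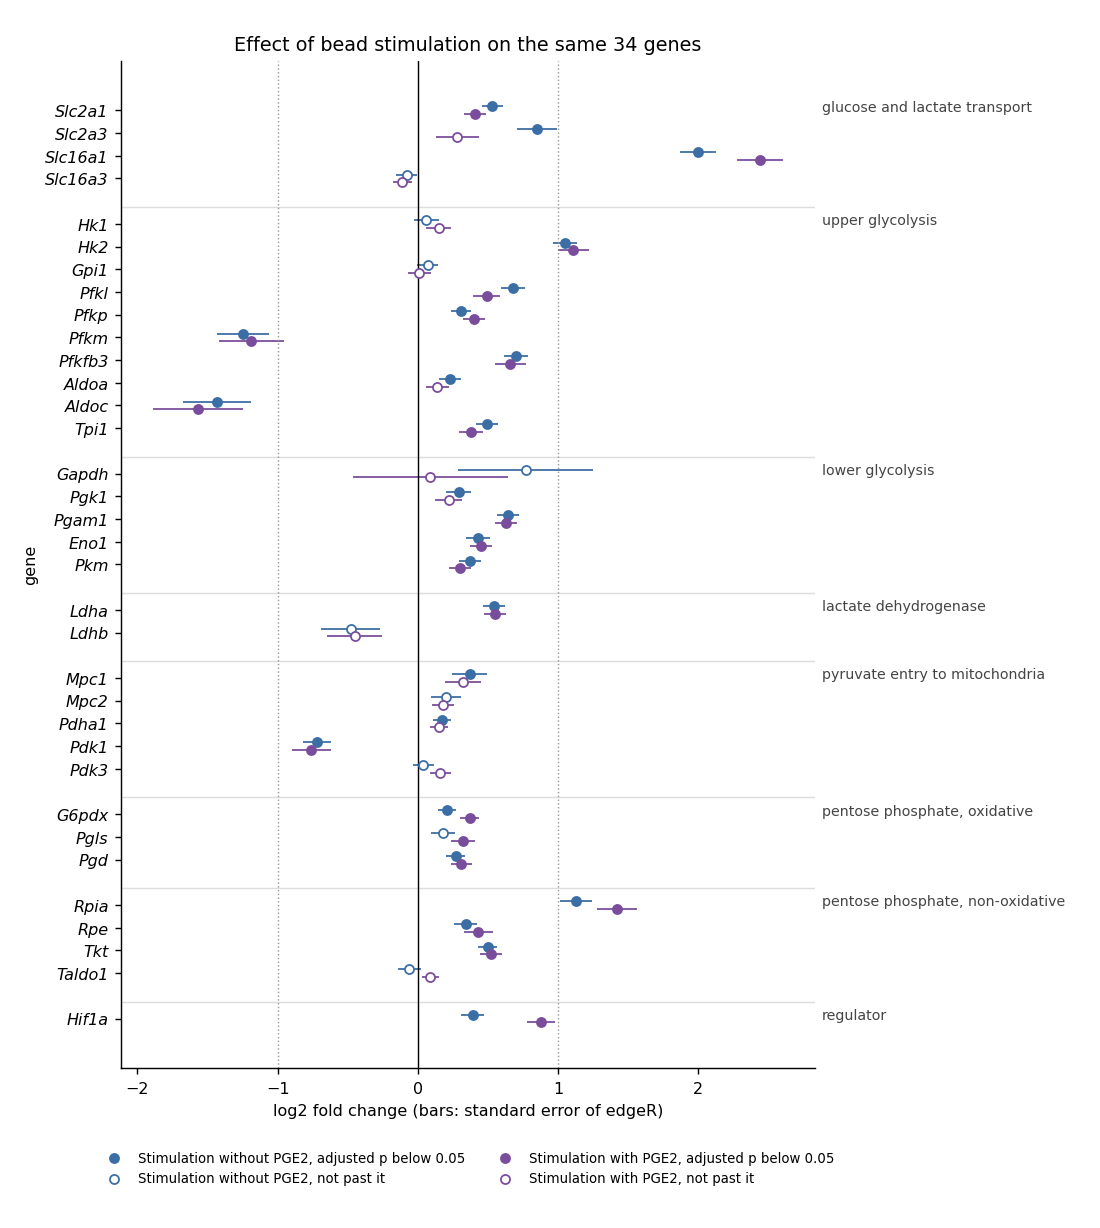
Log2 fold change of each of the 34 members with bead stimulation (x axis) by gene and role (y axis), without and with PGE2, with bars for the standard error of edgeR and filled points for an adjusted p below 0.05. Slc16a1, Hk2 and Rpia lie beyond the dotted 2-fold line on the right and Pfkm and Aldoc beyond that on the left in both comparisons.

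The same 5 members, or 4 under upper-quartile scaling, where Hk2 had log2 fold changes of 0.96 and 0.97, changed by 2-fold or more in both (14.7%, against 23.2% of all genes without and 22.1% with PGE2). Slc16a1 went from 109 ± 9.26 to 437 ± 80.1 CPM without PGE2 (log2 fold change 2.00 ± 0.128, adjusted p = 5.88e-08 by edgeR) and from 69.6 ± 6.12 to 372 ± 90.4 CPM with it (2.44 ± 0.165, adjusted p = 1.50e-06). Rpia rose by 1.13 and 1.42 and Hk2 by 1.05 and 1.11 on the log2 scale. Pfkm had log2 fold changes of -1.25 and -1.19 and Aldoc of -1.43 and -1.57, from 42.7 ± 8.70 and 50.3 ± 7.43 CPM in unstimulated untreated cells. No sample of a stimulated group overlapped its unstimulated group for any of the 5, nor for 61.6% of all genes without and 60.2% with PGE2.

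The other enzymes moved by less. Pfkfb3 (log2 fold change 0.70 without and 0.66 with PGE2), Pgam1 (0.64 and 0.63), Pfkl (0.68 and 0.49), Ldha (0.54 and 0.55), Tkt (0.50 and 0.52), Slc2a1 (0.53 and 0.41), Tpi1 (0.49 and 0.38), Eno1 (0.43 and 0.45), Pkm (0.37 and 0.30), Pfkp (0.31 and 0.40), Rpe (0.34 and 0.43), Pgd (0.27 and 0.31), G6pdx (0.21 and 0.37) and Hif1a (0.39 and 0.88) rose in both. Pdk1 fell in both (-0.72 and -0.76). Under upper-quartile scaling G6pdx without PGE2 and Pkm with it did not pass (adjusted p = 0.131 and 0.112 by edgeR).

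Slc2a3 (0.85), Pgk1 (0.29), Aldoa (0.23), Mpc1 (0.37) and Pdha1 (0.17) passed without PGE2 only, and Pgls (0.32) with PGE2 only. A call in one of them does not set them apart: the difference itself is the interaction, in which no member passed by edgeR without a block. With the block Slc2a3 passed there (adjusted p = 4.40e-04 by edgeR). Aldoa, Pgk1, Mpc1, Pdha1 and Pgls did not pass under upper-quartile scaling. Slc16a3, Hk1, Gpi1, Pdk3, Taldo1, Gapdh, Ldhb and Mpc2 passed in neither, with log2 fold changes for Slc16a3 of -0.08 and -0.11 and for Hk1 of 0.06 and 0.15. Upper-quartile scaling called Slc16a3 (-0.18 and -0.23) and Ldhb (-0.57 in both) lower. The non-call of Ldhb was not stable: with PGE2 it passed in 6 of 8 alternative fits and in 3 of 8 without 1 replicate. Without PGE2 Ldhb passed in 3 of 8 of each kind. The replicate block, taken to hold for the comparison without PGE2, called 72.3% of all genes there. With it edgeR also called Ldhb (adjusted p = 0.00854), Pgls (0.0102) and Mpc2 (0.0217) there, Ldhb with a log2 fold change of -0.48.

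The interaction, fitted on all 16 samples, asked whether the PGE2 effect differed with beads. No member passed by edgeR without a block, where 0.749% of 15096 genes did. DESeq2 and limma also called 0, and 2 members had an unadjusted p under 0.05. These were Hif1a, with a PGE2 effect larger by 0.46 ± 0.128 on the log2 scale in stimulated cells (adjusted p = 0.137), and Slc2a3, with one smaller (-0.59 ± 0.231, adjusted p = 0.385). Without stimulated PGE2 replicate 4, the Hif1a term passed (adjusted p = 0.0324). With the replicate block both terms passed (adjusted p = 0.0419 for Hif1a and 4.40e-04 for Slc2a3 by edgeR), where 2.70% of all genes did. Whether the replicate numbers pair the samples here is uncertain. For Slc16a3 and Hk1 the terms were -0.06 ± 0.0875 and 0.07 ± 0.135.

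The shares of isozymes within a sample do not depend on scaling between libraries, and were computed from FPKM. Slc16a3 made up 75.6 ± 2.40% (SD, n = 4) of the summed lactate carriers Slc16a1 and Slc16a3 in unstimulated untreated cells and 87.2 ± 1.15% with PGE2. With beads the share was 42.8 ± 4.81% without and 54.5 ± 6.96% with PGE2. The 4 groups thus took 74.2 to 79.2%, 86.1 to 88.6%, 37.2 to 46.9% and 47.1 to 61.9%, and no range met another. The share of Hk2 in both hexokinases was 61.6 ± 1.82%, 52.5 ± 0.854%, 76.2 ± 2.93% and 67.8 ± 5.98% in the same order of groups.

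The share of Slc2a3 in both glucose transporters averaged 37.5%, 45.6%, 43.0% and 43.5% in that order, and that of Pfkp in the phosphofructokinase subunits 47.8%, 43.4%, 45.8% and 46.0%. The largest of the differences for both was the one with PGE2 in unstimulated cells, 8.09 and -4.37 percentage points (p = 0.0571 and 0.0286 by the exact permutation test before adjustment). Pdk3 made up 31.7 ± 1.83% and 29.7 ± 2.35% of Pdk1 and Pdk3 without beads and 44.2 ± 3.69% and 44.5 ± 3.14% with them. Without PGE2, Aldoc made up 2.23 ± 0.220% of both aldolases without beads and 0.726 ± 0.308% with them, and Ldhb made up at most 0.650% of both lactate dehydrogenases in any sample. The exact two-sided permutation test of 4 against 4 has 70 assignments and a smallest p of 0.0286. Of 28 tests, 14 reached it, among them all 4 for Slc16a3, but the adjusted p was then 0.0571, so none passed.

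**Figure D4:**
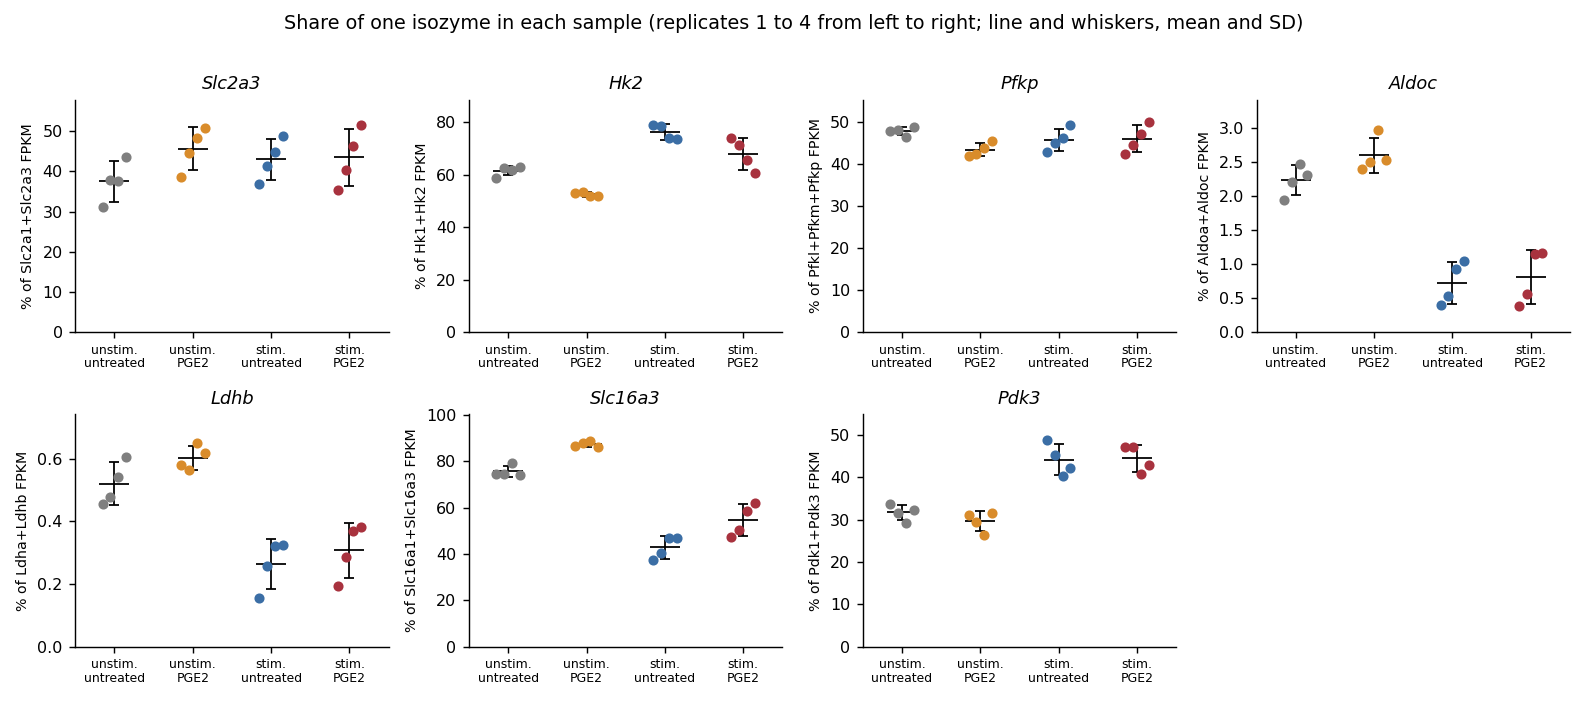
Share of 1 isozyme in the summed FPKM of its isozymes (percent, y axis) in each of the 16 samples by group (x axis), with points for the samples and lines and whiskers for the mean and SD. The share of Slc16a3 falls into 4 ranges that do not meet, from 37.2% to 88.6%, and that of Hk2 is lower in the unstimulated PGE2 samples (51.7 to 53.5%) than in all others.

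Summed over the 17 genes from hexokinase to lactate dehydrogenase, counts made up a median of 1.59% of the library in unstimulated untreated cells, 1.78% with PGE2, 1.85% with beads and 2.03% with both. The ranges with and without PGE2 overlapped, at 1.54 to 2.00% against 1.39 to 1.68% without beads and 1.93 to 2.13% against 1.75 to 1.94% with them. In CPM, scaled with TMM factors, these sums were 14968 ± 914, 16601 ± 1505, 19884 ± 579.8 and 20951 ± 425 in the same order (SD, n = 4). The 7 pentose phosphate genes summed to 946 ± 9.47, 827 ± 31.9, 1243 ± 54.7 and 1112 ± 47.4 CPM (SD, n = 4) in that order. For the sum of these 7, every PGE2 sample was below every sample of its untreated group. The ranges were 793 to 866 against 934 to 957 CPM and 1064 to 1169 against 1181 to 1314 CPM. Tkt was the largest part of the sum, at 419 and 361 CPM without beads and 599 and 512 CPM with them. Pgd stayed at 143 and 141 CPM and at 173 and 173 CPM, so the fall was not shared by all 7. The sums were not tested.

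Neighbouring pathway genes were read as lists, by counts of calls with edgeR at an adjusted p below 0.05, with no test of a list. They are to be read beside the shares of all genes: with PGE2 12.9% rose and 15.5% fell in unstimulated and 6.04% rose and 3.80% fell in stimulated cells, with the block 23.6% and 24.2%, and 19.1% and 20.7%, and with beads 31.7% rose and 34.8% fell without PGE2 and 32.5% and 31.7% with it. The median log2 fold change with PGE2, in unstimulated and in stimulated cells, was 0.33 and 0.17 over the HIF-1 partners, 0.29 and 0.12 over the HIF-1 targets outside glycolysis, 0.16 and 0.43 over the enzymes and brakes around fructose 2,6-bisphosphate, and 0.25 in both over the other isozymes. It was -0.08 and -0.04 over the pyruvate dehydrogenase complex, -0.04 and -0.12 over the other pentose phosphate enzymes and 0.13 and -0.04 over the glycogen and shuttle genes. Among 7 HIF-1 partners and regulators PGE2 raised 4 of 7 tested in unstimulated and 1 of 6 in stimulated cells and lowered none. With the replicate block 6 and 3 rose and none fell. Arnt, the partner subunit of HIF-1, went from 57.1 ± 1.66 to 77.2 ± 1.34 CPM in unstimulated cells (log2 fold change 0.46, adjusted p = 5.74e-05) and from 39.3 ± 2.01 to 50.0 ± 2.87 CPM in stimulated cells (0.35, adjusted p = 0.0119). Egln1, a prolyl hydroxylase that marks HIF for decay, and Vhl, its ubiquitin ligase adaptor, rose in unstimulated cells (0.46 and 0.33, adjusted p = 6.51e-04 and 0.00132). The last of the 4 was Hif1an (0.31), the gene of the asparagine hydroxylase that inhibits HIF. In stimulated cells Egln1 had a log2 fold change of 0.28 and passed by edgeR with the block but not without it (adjusted p = 0.125 without and 7.07e-04 with it). With beads, 1 gene of this list rose and 6 fell, with and without PGE2.

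Of 14 HIF-1 targets outside glycolysis, 6 of 14 rose and none fell with PGE2 in unstimulated cells, and 1 of 13, the histone demethylase gene Kdm3a (0.28), rose and none fell in stimulated cells. The other rises in unstimulated cells were Bnip3, Ak4 and Kdm3a. With the block 9 rose and none fell in unstimulated cells, and 6 rose and 1 fell in stimulated cells, where DESeq2 without a block called 3 higher, Kdm3a, Mxi1 and Plod2. Mxi1, a MYC antagonist, averaged 108 ± 12.1 and 158 ± 8.51 CPM without and with PGE2 in unstimulated cells (0.57, adjusted p = 5.39e-04), Bnip3l, a mitophagy receptor, 237 ± 13.1 and 315 ± 21.7 CPM (0.43, adjusted p = 0.00105), and Plod2, a collagen lysyl hydroxylase, 69.9 ± 14.5 and 97.1 ± 17.8 CPM (0.50, adjusted p = 0.0406). In stimulated cells the same genes had log2 fold changes of 0.72, 0.50 and 0.50 and passed by edgeR with the block but not without it (adjusted p without it 0.107, 0.111 and 0.0805, and with it 8.00e-07, 8.02e-06 and 1.88e-05). With beads 4 rose and 7 fell without PGE2, and 4 rose and 6 fell with it.

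Of the enzymes that set fructose 2,6-bisphosphate and of the brakes on glucose uptake (6 genes), PGE2 raised 1 and lowered 1 in unstimulated cells and raised 1 in stimulated cells, and with the block raised 3 and lowered 1 in each. DESeq2 without a block called 3 higher in stimulated cells and 2 higher and 1 lower in unstimulated cells. Pfkfb4, a bifunctional kinase and phosphatase, rose from 3.42 ± 0.301 to 8.86 ± 1.52 CPM in unstimulated cells (log2 fold change 1.40 ± 0.153, adjusted p = 6.72e-05), and in stimulated cells had one of 1.09 ± 0.364 (adjusted p = 0.0885, and 6.55e-04 with the block). Txnip, a brake on glucose uptake, rose from 82.6 ± 11.9 to 137 ± 23.6 CPM in stimulated cells (0.73 ± 0.139, adjusted p = 0.0101), and in unstimulated cells had a log2 fold change of 0.13 (adjusted p = 0.0926, and 0.00626 with the block). Tigar, which lowers fructose 2,6-bisphosphate, fell in unstimulated cells (-0.43, adjusted p = 0.0147). With beads 1 rose and 5 fell without PGE2, and 1 rose and 4 fell with it.

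Of the pyruvate dehydrogenase complex and its regulators (8 of 9 tested), PGE2 raised 1 and lowered 2 in unstimulated and raised 1 in stimulated cells, and with the block raised 2 and lowered 3 in unstimulated and raised 2 and lowered 2 in stimulated cells. In unstimulated cells these were 3 of 8 without and 5 of 8 with the block, near the shares of all genes called (28.4% and 47.8%). Pdk2 rose in both, from 6.91 ± 0.927 to 11.4 ± 1.71 CPM (0.74, adjusted p = 0.00173) and from 1.80 ± 0.167 to 3.15 ± 0.258 CPM (0.81, adjusted p = 0.00958). The phosphatase Pdp2 and the structural subunit Pdhx fell in unstimulated cells (-0.37 and -0.26, adjusted p = 0.0114 and 0.0313). Stimulation raised 5 and lowered 2 of this list with and without PGE2.

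Of the other isozymes and transporters (11 or 12 of 19 tested), PGE2 raised 3 and lowered 2 in unstimulated cells and lowered 1, the enolase gene Eno3 (-0.53), in stimulated cells. With the block it raised 6 and lowered 2, and raised 4 and lowered 2. In unstimulated cells Adpgk, which phosphorylates glucose with ADP, fell from 48.0 ± 2.82 to 28.2 ± 2.97 CPM (-0.75, adjusted p = 3.27e-05), while the transporter gene Slc2a8 rose at a low level (0.76, adjusted p = 0.00577), as did Slc2a6 (0.72), and Eno3 fell (-0.72). Stimulation raised 5 and lowered 3 in both states. Of the other pentose phosphate genes (7 of 9 tested), PGE2 raised 2 and lowered 2 in unstimulated cells and raised 1 and lowered 1 in stimulated cells. Rbks, ribokinase, rose in both (0.78 and 0.63, adjusted p = 5.48e-04 and 0.0134), and Prps2, which makes phosphoribosyl pyrophosphate from the ribose 5-phosphate that Rpia yields, fell in both (-0.66 and -0.30, adjusted p = 2.41e-05 and 0.0468). In unstimulated cells Pgm2 rose (0.43, adjusted p = 0.00984) and Prps1 fell (-0.38). Stimulation raised 2 and lowered 1 of this list without PGE2, or raised 2 and lowered 3 with the block, and raised 2 and lowered 2 with PGE2.

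Of the genes of glycogen, gluconeogenesis and redox shuttles (13 of 16 tested), PGE2 raised 4 and lowered 2 in unstimulated cells. The rises included Got1 (0.27) and the falls were G6pc3 (-0.38) and Mdh2 (-0.20). The other 3 rises were glycogen genes. Pygl, glycogen phosphorylase, went from 20.1 ± 5.20 to 48.0 ± 11.2 CPM (1.27 ± 0.204, adjusted p = 7.94e-04), Gys1, glycogen synthase, from 43.6 ± 6.34 to 72.2 ± 13.2 CPM (0.75, adjusted p = 0.00237) and Gbe1, the branching enzyme, from 24.9 ± 3.00 to 34.3 ± 8.29 CPM (0.49, adjusted p = 0.0401). The glycogen genes Pygb (0.09, adjusted p = 0.372) and Ugp2 (-0.03, adjusted p = 0.790) did not pass. In stimulated cells Pygl, Gys1 and Gbe1 had log2 fold changes of 1.54, 0.53 and 0.42 and passed by edgeR with the block (adjusted p with it 3.18e-04, 3.79e-05 and 9.70e-04), as edgeR without it called 0 of 13 there. DESeq2 called 0 too, 4 genes had an unadjusted p under 0.05 by edgeR, and the block raised 5 and lowered 3. Stimulation raised 5 and lowered 5 of this list without PGE2, and raised 6 and lowered 4 with it. In the interaction edgeR without a block called 0 of the 80 genes of these lists, DESeq2 called 1, and 7 had an unadjusted p under 0.05. With the block edgeR called 5.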

How the data were processed

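Poly(A)-selected RNA of 16 samples was sequenced in paired-end mode. Reads were aligned by the authors to GRCm38 with HISAT2 2.0.5 and counted them per gene with featureCounts 1.5.0-p3, and the deposited counts are raw whole numbers. FPKM values deposited by the authors are counts per length and library size. Their DESeq2 version was 1.20.0. The annotation release, the use of strand and the handling of reads with several matches are not given in the sources used here, and bear on Gapdh and on genes with antisense neighbours. Overlaps on the same strand bear on counts with or without strand. Pgls, Pkm and Pfkm share 20.6%, 15.3% and 10.2% of their exon bases with Fam129c, Gm49759 and Gm26513. These neighbours averaged 8.28, 117 and 0.608 CPM, against 84.5, 2775 and 34 CPM for the members.

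Counts were tested with edgeR 4.0.16 (filterByExpr with a minimum count of 10, TMM, quasi-likelihood test, two-sided) in R 4.3.3, on the 8 samples of each pair of groups or, for the interaction, on all 16, with Benjamini-Hochberg adjustment over all genes tested. Levels in CPM used the TMM factors of all 16 samples. Errors on log2 fold changes are standard errors. The fit was tested on simulated data and recovered 34.4% of genes changed by 0.5 and 86.6% of those changed by 1 on the log2 scale for PGE2 in stimulated cells, over 13724 genes, and 18.2% and 58.6% for the interaction, over 14779 genes. Isozyme shares were compared by exact permutation. Alternatives were DESeq2 1.42.0, RLE and upper-quartile factors, no filter, limma 3.58.1 on log2(FPKM + 1) or log2(FPKM + 0.1) where genes averaged 1 FPKM or more, the replicate number as a block, 1 fit of all samples, and each replicate left out. Near-identical copies were transcripts of other genes with at least 95% identity over 300 bases.

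Whether samples with the same number share a culture or mouse is not given, so p-values measure the spread between these samples. The deviations of same-numbered samples from their group means correlated between 0.19 and 0.423 for PGE2 in stimulated cells, between 0.137 and 0.444 for PGE2 in unstimulated cells and between 0.112 and 0.359 for stimulation without PGE2. The numbers were therefore taken to pair the samples in these 3 comparisons, from the data and not from a label.

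The members and lists were chosen with earlier results of these data known. Named are all members, with values of every sample for the 6 with the smallest adjusted p in each PGE2 comparison, and of each pathway list at most 3 genes with the largest change and a mean of at least 1 CPM. Slc2a3 and Gapdh by sample, and the genes Kdm3a, Bnip3, Ak4, Hif1an, Eno3, Slc2a6, Prps1, Got1, G6pc3 and Mdh2, were added after their values were seen. The values of a further list gene are not reported here.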

Additional observations from a re-analysis of the deposited data

Results flagged for a closer look

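Of 164 sets of 4 samples looked at (each member and each isozyme share in each group), 3 (1.83%) held a sample far from the other 3, where chance alone gives about 1 in 20. Pdk1 read 449.6 CPM in unstimulated PGE2 replicate 3 and between 345 and 359 CPM in the other replicates of that group. Pgls read 90.4 CPM in unstimulated untreated replicate 3 and between 78.4 and 79.9 CPM in the others. The share of Slc16a3 in both lactate carriers was 79.2% in unstimulated untreated replicate 3 and between 74.2% and 74.6% in the others.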

How the results depend on the processing

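The count of members called changed by more than 1.5 times with the replicate block, to 14 for PGE2 in stimulated cells, to 27 for PGE2 in unstimulated cells and to 2 for the interaction (Hif1a, adjusted p = 0.0419, and Slc2a3, adjusted p = 4.40e-04, by edgeR). For stimulation with PGE2 and for the interaction the numbers were not taken to pair the samples, since the lowest of the correlations of same-numbered samples was 0.0439. Pairing in the comparisons that share these groups would imply pairing here too, so this choice is uncertain. The block gave 27 members in place of 21 for stimulation with PGE2, where it called 67.5% of all genes, against 2.70% in the interaction. For stimulation without PGE2 it gave 28 in place of 25. Without single replicates the counts lay between 2 and 3 for PGE2 in stimulated cells, between 7 and 13 for PGE2 in unstimulated cells, between 23 and 28 and between 21 and 23 for stimulation without and with PGE2, and between 0 and 1 for the interaction. The other alternatives kept each count within 1.5 times, and no called member changed direction in any. Over single members and isozyme shares together, 3058 values kept their side of the threshold, 85 passed it newly and 67 lost it. Shares from CPM in place of FPKM also gave 0 of 28 passing. For a pair of isozymes they keep the order of the samples, so this repeat is not an independent check. Tests of shares without a replicate or within replicate numbers cannot reach the threshold, so none was run. In the interaction the block called 5 of the 80 pathway list genes in place of 0, and 15 had an unadjusted p under 0.05. Simulated interactions of 0.5 on the log2 scale were recovered in 18.2% of genes drawn at random, with no tie between same-numbered samples. The rate for the members themselves was not measured, and members without a call there may still differ. Ldhb and Mpc1 had the lowest levels of the members, and their values rest on the fewest counts.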
